A study of Mus musculus with 14 samples.

Results

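L1Md_F, L1Md_F2 and L1Md_F3 are mouse subfamilies of the LINE1 (L1) retrotransposon. The copies described here are those of the 3 subfamilies that span at least 2000 bp in the deposited tables of single transposable element (TE) copies. They number 11393 of the 3725827 TE copies listed (875 F, 8835 F2 and 1683 F3 copies), out of 85060 F, F2 and F3 copies of any length and 43606 L1 copies of at least 2000 bp. A copy that one of the tables does not list was given the value 0 in that stage. At the edge of the length rule, 3 F2 copies of 1999 bp were left out and 3 F2 copies of 2000 bp were taken in. Expression was measured by stranded sequencing of polyadenylated RNA in male germ cells of Dnmt3C KO/KO mice (KO) and of their wild-type littermates (WT), both on a C57Bl6/J background. KO animals carry the mutated gene of the DNA methyltransferase DNMT3C on both chromosomes in all tissues. Spermatogonia (Spg, 3 KO and 3 WT libraries) were sorted from P14 testes as EpCAM-positive and β2M-negative cells. Spermatocytes (Spc, 4 KO and 4 WT libraries) were sorted by their DNA staining from testes older than P20. KO spermatocytes arrest in the pachytene phase of meiosis while the WT sort also reaches later cells, so in these bulk samples a different mix of cells and a different level per cell cannot be told apart.

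L1 elements copy themselves through an RNA that is read from a promoter at their own 5′ end, and a full-length element encodes an RNA-binding protein (ORF1p) and a reverse transcriptase with endonuclease activity (ORF2p). Most genomic copies lost their 5′ end or their reading frames and are remnants. DNMT3C methylates promoters of L1 elements in fetal male germ cells. L1Md_T, L1Md_A and L1Md_Gf hold the youngest mouse elements, and the F subfamilies belong to older lineages. An old copy can also appear in RNA because it lies inside, or downstream of, another transcription unit.

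No sequence of whole F copies was at hand, but annotated transcripts that begin inside copies showed some of it. All 21 RefSeq promoter windows (250 bases before to 50 after a gene's start) that overlapped one of the copies lay on the strand opposite to the copy, and 0 lay on its own strand. They belonged to 19 genes and 19 copies. In the GENCODE M21 annotation, 51 genes started inside a copy on its opposite strand, 32 of them noncoding RNA genes, 11 pseudogenes and 7 protein coding. Their starts lay at a median of 940 bp from the 5′ end of the copy, and 44 of 51 within 1300 bp. Another 37 genes started on the strand of the copy, 30 of them pseudogenes, at a median of 1613 bp. The first bases of 5 noncoding RNAs that start antisense inside copies are given because their levels are described further on. Sequences run 5′ to 3′ on the strand of the gene (GRCm38), and capitals mark a 12-base stretch, acttcccttttt, that 19 of 44 such first exons held within their first 120 bases:
1700110I01Rik, in L1Md_F2_dup51925, chr14:3298551-3298640 (+): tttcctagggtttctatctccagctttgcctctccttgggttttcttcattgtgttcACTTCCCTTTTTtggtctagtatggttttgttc
Gm10339, in L1Md_F_dup3383, chr14:7381830-7381919 (-): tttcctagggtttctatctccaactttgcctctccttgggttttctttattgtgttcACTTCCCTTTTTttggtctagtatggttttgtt
Gm41102, in L1Md_F_dup3420, chr14:19618800-19618889 (-): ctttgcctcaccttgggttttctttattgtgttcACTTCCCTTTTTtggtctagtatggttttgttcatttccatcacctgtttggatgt
4930554C24Rik, in L1Md_F2_dup31815, chr9:84851283-84851372 (+): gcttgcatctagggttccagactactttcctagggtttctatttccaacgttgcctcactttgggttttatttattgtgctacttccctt
Gm47381, in L1Md_F_dup3361, chr13:91259376-91259425 (+): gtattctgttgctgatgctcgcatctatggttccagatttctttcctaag

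The parts of the first exons inside the copies were 99.0% identical between 1700110I01Rik and Gm10339 (1021 aligned bases), 97.6% between 1700110I01Rik and Gm41102 (999 bases) and 98.2% between Gm10339 and Gm41102 (998 bases). Reads of these near-identical exons could be divided between the genes in the counting. The exon of 4930554C24Rik was 86.9% to 87.7% identical to these 3 over 715 to 740 bases. Upstream of the starts, 15 RefSeq windows that began within 1300 bp of the 5′ end of a copy were compared. Of 105 pairs, 39 aligned over at least 100 bases, with a median identity of 94.2% (82.2% to 98.4%). A 19-base stretch, tcttccatctcttgtattc, was held by 9 of the 15 (60.0%), between 54 bases before and 1 base after the start, and by 15 of all 32851 RefSeq windows (0.0457%, both strands searched). The 12-base stretch occurred in 0 of the 15 windows and in 5 of all windows (0.0152%). The windows end 50 bases after the start, while the exons were searched over 120 bases, so these shares are no background for the exons. Both stretches were picked from these sequences for being the most shared, so their frequency among the copies is a description. The windows of 1 F and 1 F2 copy show the 19 bases in capitals:
4930521O11Rik, in L1Md_F_dup3383, chr14:7381870-7382169 (-), GRCm38.p6: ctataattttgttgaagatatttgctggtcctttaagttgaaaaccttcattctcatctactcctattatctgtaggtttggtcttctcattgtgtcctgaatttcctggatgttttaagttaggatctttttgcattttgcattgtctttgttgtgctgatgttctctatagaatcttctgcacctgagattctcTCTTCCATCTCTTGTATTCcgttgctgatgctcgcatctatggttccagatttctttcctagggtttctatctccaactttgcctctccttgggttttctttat
4930431F12Rik, in L1Md_F2_dup17980, chr5:44965951-44966250 (+), GRCm38.p6: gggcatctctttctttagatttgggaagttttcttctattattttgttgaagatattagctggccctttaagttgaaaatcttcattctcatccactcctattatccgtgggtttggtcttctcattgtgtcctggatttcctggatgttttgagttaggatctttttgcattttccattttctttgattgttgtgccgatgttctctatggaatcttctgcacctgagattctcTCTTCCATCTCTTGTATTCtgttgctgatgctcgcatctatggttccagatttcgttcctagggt

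The total count per library ran from 40555726 to 53323651. Counts of Dnmt3c itself were not lower in the KO libraries (116, 58 and 67 in KO against 89, 65 and 53 in WT spermatogonia), so they did not serve to check the labels. In spermatogonia 0 marker genes were called, but the 6 pachytene markers had a median log2 fold change of -3.12. Their summed level (CPM, counts scaled to library size) was 540, 1802 and 277 in WT and between 153 and 171 in KO, so every KO library lay below every WT library, and WT replicate 2 was the highest. In spermatocytes the 6 pachytene markers, such as Piwil1 and Pgk2, were all lower in KO (summed 226 to 328 CPM against 6988 to 9075) and so were the 6 spermatid markers (2.88 to 12.6 against 42.2 to 1234). Higher in KO spermatocytes were 5 of 6 spermatogonial markers (428 to 1275 against 21.7 to 218), 5 of 5 Leydig markers (65.4 to 333 against 8.38 to 19.96), 4 of 4 macrophage markers (20.1 to 102 against 1.30 to 3.57), 3 of 4 peritubular markers (18.0 to 180 against 1.70 to 6.16) and 1 of 5 Sertoli markers (73.7 to 292 against 16.9 to 80.9). The early meiosis list overlapped (1382 to 2499 against 793 to 1992, 2 higher and 1 lower of 6), and no erythroid gene was called (1.23 to 6.76 against 0.881 to 6.04). Prm1 was not listed among the spermatogonia counts, and every other marker had counts in both stages. Over all genes tested in spermatocytes, 28.0% were higher and 30.7% lower in KO. Replicates 1 and 4 of the spermatocytes were more alike than other pairs of the same genotype (chi-square over its degrees of freedom 10.98 in KO and 15.3 in WT, against 112.7 to 288.9), beyond sampling noise, so that n = 4 may overstate how many independent samples there were. The part of these differences in the results for L1 copies was not tested.

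The F2 and F3 copies were longer than the F copies. Median lengths were 3595 bp in F, 4675 bp in F2 and 5004 bp in F3, and 3, 1587 and 302 copies reached 6000 bp. The median was 4633 bp over all the F, F2 and F3 copies, 5456 bp in L1Md_T, 5381 bp in L1Md_A and 3813 bp over all L1 copies of at least 2000 bp. Of the 11393 copies, 9023 (79.2%) lay between genes, 2220 (19.5%) in introns and 150 (1.32%) touched an exon, where all L1 copies of that length had 75.7%, 22.7% and 1.56%. In introns of a single gene, 1429 copies (67.1%) were antisense to the gene and 701 sense (68.9% antisense over all such L1 copies).

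More copies were seen in RNA in KO than in WT at both stages. TPM, a level per length of the copy, sums to the same total over TE copies alone in each library, and a TPM multiplied by the length of the copy came out as whole reads, so reads are given too. A copy with at least 1 read was found for 2046, 2148 and 1333 copies in the KO spermatogonia libraries and for 587, 999 and 889 in WT. In spermatocytes, with replicates in the order 1 to 4, KO libraries had 3785, 2342, 3853 and 3769 such copies and WT libraries 1097, 583, 1728 and 1068. The KO and WT libraries did not overlap at either stage, and KO replicate 2 was the lowest of the KO spermatocytes. The gap was present over all L1 copies of at least 2000 bp too. A mean of 30.2% of the F, F2 and F3 copies had a read in KO and 9.82% in WT spermatocytes, where all those L1 copies had 37.7% and 9.997%. In spermatogonia the shares were 16.2% and 7.24%, against 27.03% and 9.05%. Over all 14 libraries 3749 copies (32.9%) had no read, 4120 had one in spermatogonia and 7021 in spermatocytes.

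The summed TPM of the copies was 556 ± 119 in KO and 382 ± 51.9 in WT spermatogonia (SD, n = 3 each), and 1214 ± 326 in KO and 439 ± 111 in WT spermatocytes (SD, n = 4 each). In spermatogonia the groups touched, since the lowest KO library had 437 TPM and the highest WT library 440 TPM. In spermatocytes the lowest KO library had 795 TPM and the highest WT library 568 TPM. Reads were concentrated on few copies in WT. The 10 copies with the most reads held 32.5% to 59.9% of the reads on the copies in WT and 18.1% to 23.5% in KO spermatocytes. In spermatogonia they held 35.3% to 41.1% in WT and 23.2% to 29.1% in KO.

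Longer copies were seen more often. Of the F3 copies of 6000 bp and more, 78.5% had a read in at least 1 KO spermatocyte library and 37.1% in a WT one. Of the F2 copies of at least 2000 and under 4000 bp the shares were 47.3% and 17.4%, and of those of 6000 bp and more 66.4% and 30.5%. In each subfamily and length class the KO share exceeded the WT share in both stages, apart from the 3 F copies of 6000 bp and more, of which 1 had a read in each genotype of spermatogonia.

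**Figure D1:**
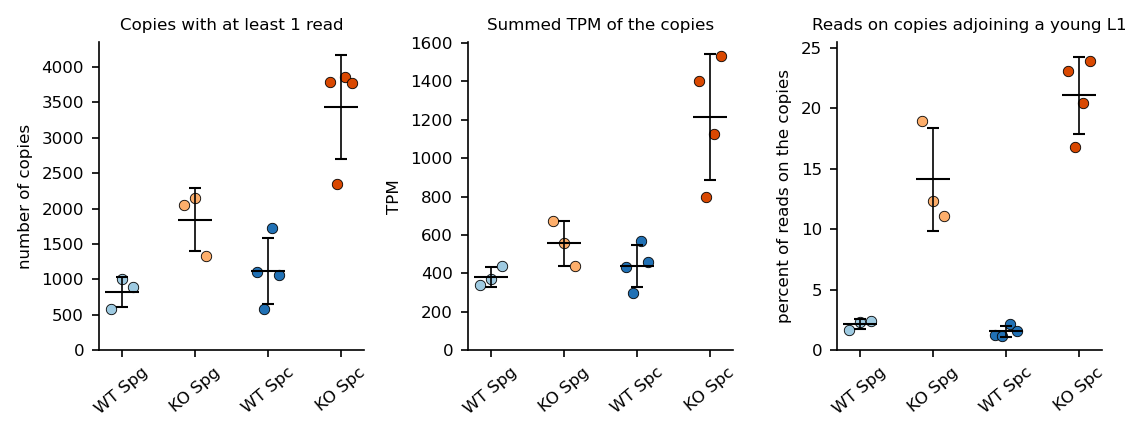
For each of the 14 libraries, by group, the panels plot the number of F, F2 and F3 copies of at least 2000 bp with at least 1 read, their summed TPM, and the percent of their reads that fell on copies lying just downstream of a young L1 copy. Points are libraries and bars the mean ± SD. KO spermatocytes had 2342 to 3853 copies with a read and WT spermatocytes 583 to 1728.

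At the level of whole subfamilies, whose counts also take in copies under 2000 bp, F and F2 rose in KO spermatocytes. With CPM scaled by TMM factors over all libraries, L1Md_F was at 94.8 ± 30.2 CPM in KO and 31.4 ± 13.1 in WT spermatocytes (SD, n = 4 each), and L1Md_F2 at 1483 ± 406 and 389 ± 131. By edgeR their log2 fold changes were 1.61 (SE 0.37, adjusted p = 0.00314) and 1.96 (SE 0.30, adjusted p = 0.000317). The call of F was lost without WT replicate 1 (1.58, edgeR adjusted p = 0.0103) and with replicates 1 and 4 of each genotype summed (1.52, edgeR adjusted p = 0.0218). The KO libraries lay above the WT libraries, with F at 107, 51.3, 100.4 and 120 CPM in KO against 30.7, 15.6, 47.6 and 31.8 in WT. L1Md_F3 was at 303 ± 81.9 CPM in KO and 190 ± 13.6 in WT, with 350, 186, 309 and 368 CPM in KO against 190, 175, 208 and 188 in WT, so that KO replicate 2 fell among the WT values. The change of 0.69 on the log2 scale (edgeR, SE 0.23 and adjusted p = 0.0201) was not called at the threshold of 0.01 used throughout, and was 0.88 (edgeR adjusted p = 0.00165) without that library. With counts scaled by library totals alone, which moved the median of all genes from 0.11 to 0.79, it was 1.36 (edgeR adjusted p = 0.000609) and called. Of all TE subfamilies tested, 11.7% were higher in KO spermatocytes.

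None of the 3 subfamilies was called in spermatogonia, where edgeR called 0.76% of all TE subfamilies higher in KO. L1Md_F reached 33.8, 41.1 and 22.03 CPM in the KO libraries where WT had 10.3, 18.5 and 21.8 (log2 fold change 0.91 with SE 0.32, edgeR adjusted p = 0.476). L1Md_F2 was at 505, 742 and 414 CPM in KO and 234, 396 and 459 in WT (0.58, SE 0.28, edgeR adjusted p = 0.787). L1Md_F3 was at 108, 151 and 92.9 CPM in KO and 58.0, 98.0 and 99.998 in WT (0.43, SE 0.25, edgeR adjusted p = 0.926). The lowest KO library exceeded the highest WT library only for F, and by 0.257 CPM.

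The difference in the KO effect between the stages was tested directly. It was 1.32 on the log2 scale for F2 (SE 0.44, edgeR adjusted p = 0.0269), 0.65 for F (SE 0.54, edgeR adjusted p = 0.339) and 0.21 for F3 (SE 0.36, edgeR adjusted p = 0.662), and none of these was called, against 6.44% of all TE subfamilies. For F2 it passed the threshold without KO spermatocyte replicate 2 (1.60, edgeR adjusted p = 0.00837) or without WT spermatocyte replicate 3 (1.56, edgeR adjusted p = 0.00675), and under library totals (1.97, edgeR adjusted p = 0.00654). From spermatogonia to spermatocytes, F3 rose by 1.16 on the log2 scale in WT (edgeR, SE 0.26 and adjusted p = 0.00158) and by 1.37 in KO (edgeR, SE 0.27 and adjusted p = 0.00609). The other subfamilies were not called between the stages. F changed by 0.90 in WT (edgeR adjusted p = 0.0579) and 1.55 in KO (edgeR adjusted p = 0.0293), F2 by 0.10 (edgeR adjusted p = 0.794) and 1.42 (edgeR adjusted p = 0.0162). In KO both were called by DESeq2 (1.53 and 1.40, adjusted p = 0.00347 and 0.00112). Of all TE subfamilies, 25.5% were called between the stages in WT and 1.43% in KO. The call of F3 in KO was lost without any 1 of the KO spermatogonia replicates 1, 2 and 3, the KO spermatocyte replicates 1, 3 and 4 or WT spermatogonia replicate 3 (edgeR adjusted p from 0.0107 to 0.0706). It was also lost with the replicate number as a block (1.31, edgeR adjusted p = 0.0328), with spermatocyte replicates 1 and 4 summed (1.29, edgeR adjusted p = 0.0299) and under library totals (1.26, edgeR adjusted p = 0.0121). The call in WT was lost without WT spermatogonia replicate 1 (0.80, edgeR adjusted p = 0.0247) and under library totals (0.36, edgeR adjusted p = 0.238).

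**Figure D2:**
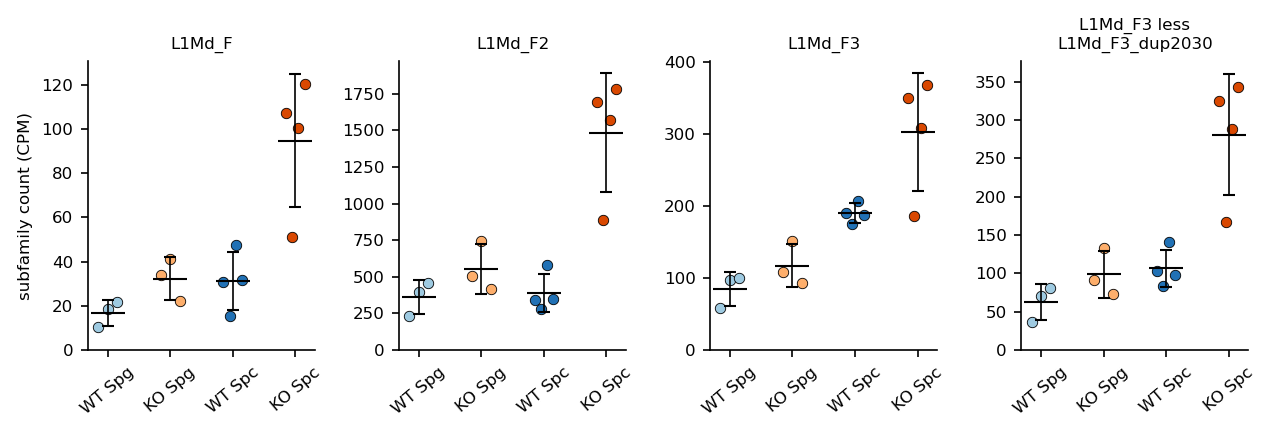
TMM-scaled CPM of L1Md_F, L1Md_F2 and L1Md_F3 in the 14 libraries by group, and of L1Md_F3 less the reads of the copy L1Md_F3_dup2030. Points are libraries and bars the mean ± SD. L1Md_F2 was at 888 to 1784 CPM in KO and 284 to 580 CPM in WT spermatocytes, and the WT level of L1Md_F3 falls from 175 to 208 CPM to 83.9 to 141 CPM without the 1 copy.

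The young subfamilies had larger fold changes. The summed counts of F, F2 and F3 fell below L1Md_T and L1Md_A in KO but not below L1Md_Gf. Most of that sum was F2. Taken alone, F and F3 had lower mean levels than L1Md_Gf in KO. They were at 94.8 and 303 CPM against 612 in spermatocytes, and at 32.3 and 118 against 165 in spermatogonia. L1Md_T, L1Md_A and L1Md_Gf had log2 fold changes of 4.13, 3.44 and 4.64 in spermatogonia and 5.69, 5.88 and 6.05 in spermatocytes. Summed over F, F2 and F3, there were 1.79 to 2.26 counts per L1Md_T count in WT spermatocytes and 0.113 to 0.159 in KO. The log2 ratio differed by -4.03 between KO and WT (two-sided exact permutation test, p = 0.0286, the smallest that 4 against 4 libraries can give, 0.0686 adjusted over 12 ratios). Per L1Md_A count there were 2.32 to 3.80 in WT and 0.138 to 0.222 in KO, and per L1Md_Gf count 54.3 to 131 in WT and 2.75 to 3.70 in KO, with differences of -4.22 and -4.51 and the same p. In spermatogonia they were -3.47 over T, -2.82 over A and -3.95 over Gf (exact permutation p = 0.1, the smallest that 3 against 3 can give, adjusted 0.12). With same-numbered spermatogonia replicates paired, an exact sign-flip test gave p = 0.25 for each, the smallest that 3 pairs can give. In all 6 the KO and WT libraries did not overlap.

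Ratios among the 3 subfamilies moved less. With these numbers of libraries no ratio of either kind could reach a p under 0.01. There were 4.77 to 5.08 counts of F2 per count of F3 in KO and 1.62 to 2.79 in WT spermatocytes, a log2 difference of 1.31 (exact permutation p = 0.0286, adjusted 0.0686). F over F3 differed by 1.00 with the same p. Both depended on 1 F3 copy, L1Md_F3_dup2030, described next. Less its reads, a step chosen after the values were seen, F over F3 overlapped (0.307 to 0.350 in KO and 0.186 to 0.338 in WT, log2 difference 0.26, exact permutation p = 0.2). F2 over F3 was then 5.19 to 5.43 in KO and 3.33 to 4.11 in WT, a log2 difference of 0.56 (exact permutation p = 0.0286, adjusted 0.0857). F over F2 overlapped between the genotypes, with a difference of -0.30 (exact permutation p = 0.143, adjusted 0.156). In spermatogonia F2 over F3 also overlapped (difference 0.15, exact permutation p = 0.2, adjusted 0.2), and F over F2 and F over F3 differed by 0.34 and 0.49 (exact permutation p = 0.1, adjusted 0.12). Paired by replicate number, the exact sign-flip p was 0.5 for F2 over F3 and 0.25 for F over F2 and F over F3.

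A single copy carried much of F3 in WT. L1Md_F3_dup2030 (chr3:59763928-59770781, + strand, 6854 bp) had 2816, 3014, 2789 and 2600 reads in WT spermatocytes and 1207, 1070, 1053 and 1212 in KO. In spermatogonia it had 1268, 1346 and 1045 reads in WT and 988, 1056 and 1140 in KO. The WT spermatocytes were the high group and the other 3 groups were close together. These reads were 51.0% to 76.2% of all reads on the F3 copies of at least 2000 bp in WT spermatocytes and 11.98% to 20.3% in KO. Its log2 fold change in spermatocytes was -2.22 (SE 0.36, limma adjusted p = 0.00168), and -1.94 in edgeR on the reads (adjusted p = 0.0162, not called). With TPM scaled by the share of TE reads in the library it was -0.39 (limma adjusted p = 0.5).

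This copy holds the processed pseudogene Gm5539, an intronless copy of an mRNA, whose annotated start lies 3347 bp into it on the same strand. The 966 bases of the Gm5539 transcript were 98.6% identical to Morf4l1, which encodes the chromodomain protein MRG15 of histone acetyltransferase complexes. The start of Gm5539 is given because this stretch of the copy is that of a gene transcript:
Gm5539, in L1Md_F3_dup2030, chr3:59767275-59767394 (+), GRCm38: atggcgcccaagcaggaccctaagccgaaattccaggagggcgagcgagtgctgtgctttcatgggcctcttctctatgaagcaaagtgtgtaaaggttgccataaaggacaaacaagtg

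Morf4l1 was at 2369 ± 762 CPM in WT and 350 ± 38.5 in KO spermatocytes (SD, n = 4 each; log2 fold change -2.76, SE 0.28 and adjusted p = 2.7e-05 in edgeR) and at 548 ± 108 and 438 ± 43.6 in spermatogonia (SD, n = 3 each). For the gene as for the copy, the WT spermatocytes were the highest group. Whether Morf4l1 reads were placed on the copy was not tested. When the reads of this copy were taken out of the F3 count, a step chosen after the values were seen, F3 was higher in KO spermatocytes by 1.42 on the log2 scale (edgeR, SE 0.27 and adjusted p = 0.000957). The rise of F3 between the stages was then no longer called in WT (0.76, edgeR adjusted p = 0.0489) or KO (1.51, edgeR adjusted p = 0.0124). The KO effect in spermatogonia stayed uncalled (0.62, edgeR adjusted p = 0.824).

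Single copies were tested with limma on log2(TPM + 0.1) among all TE copies with a mean of at least 0.5 TPM, a scale that understates the change of low copies. In spermatocytes 259 of the 11393 copies could be tested, and 79 were higher and 17 lower in KO. Of the copies tested, 10 of 29 F copies, 60 of 194 F2 copies and 9 of 36 F3 copies were higher, and 2, 10 and 5 were lower. Of all TE copies tested, 7.17% were higher and 4.06% lower. The median log2 fold change was 2.82 over the 259 copies and 1.39 over all 241893 copies tested, and 2.66 when copies without a read in one genotype were set to the bound that 3 reads per library give (56 had no WT read). A copy could pass the filter through KO alone, so these values describe the tested copies. Without 1 library, 37 to 53 copies were called when it was KO replicate 1, 3 or 4 or WT replicate 1, 2 or 4, 95 when it was WT replicate 3 and 132 when it was KO replicate 2. With replicates 1 and 4 of each genotype averaged, 24 were called. With the median of all copies set to 0 in each library the split became 2 higher and 32 lower and the median over the 259 copies 0.05 (-1.38 over all copies). With TPM scaled by the share of TE reads in the library it was 140 higher and 4 lower, with a median of 3.86 (2.00 over all). edgeR on the recovered reads tested 395 copies and called 256 higher and 39 lower (all copies 47.7% and 17.8%), and 95 of the 96 limma calls were among them. Reads that match several near-identical copies are divided between them, so a value of 1 copy is uncertain.

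In spermatogonia limma called 0 of 141 copies tested, with 16 at an unadjusted p under 0.05, where it called 0.00872% of all copies higher. The median log2 fold change was 0.09 over the 141 copies and 0.03 over all. It turned with the scaling, to -0.89 (-0.95 over all) with the median of each library set to 0, and to 0.53 (0.35 over all) with TPM scaled by the share of TE reads. edgeR on the reads called 53 of 227 copies higher and 0 lower (13.7% of all copies higher).

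The copies that rose the most in spermatocytes had many reads in each KO library and next to none in WT. L1Md_F3_dup15673 (chr18:56230283-56235274, + strand, between genes) had 2014, 763, 1614 and 2230 reads in KO and 1, 0, 0 and 0 in WT, 6621 times as many reads (95% interval 1188 to 261555, counting error only). Scaled by what 1 read is worth in TPM in each library, the ratio was 3557 (95% interval 638 to 140522). It was the highest copy of 3 of the 4 KO spermatocyte libraries. In spermatogonia it had 743, 583 and 258 reads in KO and 0 in each WT library, at least 176 times as many reads against a floor of 3 per library, or 160 after that scaling. Its log2 fold change in spermatocytes was 8.13 (SE 0.76, limma adjusted p = 0.000151).

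L1Md_F2_dup31869 (chr9:87827259-87832716, - strand, between genes) had 1496, 615, 1296 and 1762 reads in KO spermatocytes and 0 in each WT library, at least 431 times as many reads (225 on the TPM scale). In spermatogonia it had 194, 333 and 123 reads in KO and 0, 0 and 1 in WT. L1Md_F2_dup52350 (chr14:24311964-24317303, - strand, between genes) had 1100, 398, 875 and 1311 reads in KO and 0, 0, 0 and 2 in WT spermatocytes, and 401, 305 and 179 reads against 0 in spermatogonia. Both had their reads almost wholly in KO at either stage, and KO replicate 2 was their lowest KO spermatocyte library. Their log2 fold changes in spermatocytes were 7.78 and 7.07 (limma adjusted p = 0.00019 and 0.000352).

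L1Md_F3_dup13040 (chr14:12244300-12247111, - strand, between genes) had 418, 163, 388 and 503 reads in KO spermatocytes and 0 in each WT library, at least 123 times as many reads (63.9 on the TPM scale). L1Md_F2_dup62734 (chr18:48206193-48210618, - strand, between genes) had 899, 372, 822 and 1066 reads in KO and 0, 2, 10 and 1 in WT (log2 fold change 6.49, limma adjusted p = 0.000548). These 5 copies, with L1Md_F2_dup46478 described further on, were the 6 called copies with the largest rise on the limma scale. The order was another in edgeR on the reads, where L1Md_F2_dup1093 had a log2 fold change of 11.43 and L1Md_F3_dup13040 of 11.28.

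In spermatogonia no copy was called by limma, and the smallest unadjusted p fell on copies of the same kind. L1Md_F3_dup15673 had a log2 fold change of 6.83 there (limma adjusted p = 0.278), L1Md_F2_dup52350 of 5.96 (0.499) and L1Md_F2_dup31869 of 5.36 (0.648), all as limma adjusted p. L1Md_F2_dup43523 (chr10:63730446-63734217, + strand, in an intron of Ctnna3 and sense to it) had 300, 229 and 123 reads in KO and 1, 1 and 6 in WT spermatogonia, and 874, 380, 543 and 999 against 3, 0, 15 and 13 in spermatocytes. Ctnna3, an α-catenin gene of cell junctions, was lower in KO spermatocytes (log2 fold change -3.85, edgeR adjusted p = 0.000283), so the copy and the gene around it went in opposite directions. L1Md_F2_dup1093 (chr1:33414871-33420028, + strand, between genes) had 207, 169 and 80 reads in KO spermatogonia and 524, 209, 428 and 471 in KO spermatocytes, and 0 in all 7 WT libraries. edgeR on the reads called all 5 in spermatogonia, with adjusted p from 2.8e-05 to 0.000108.

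**Figure D3:**
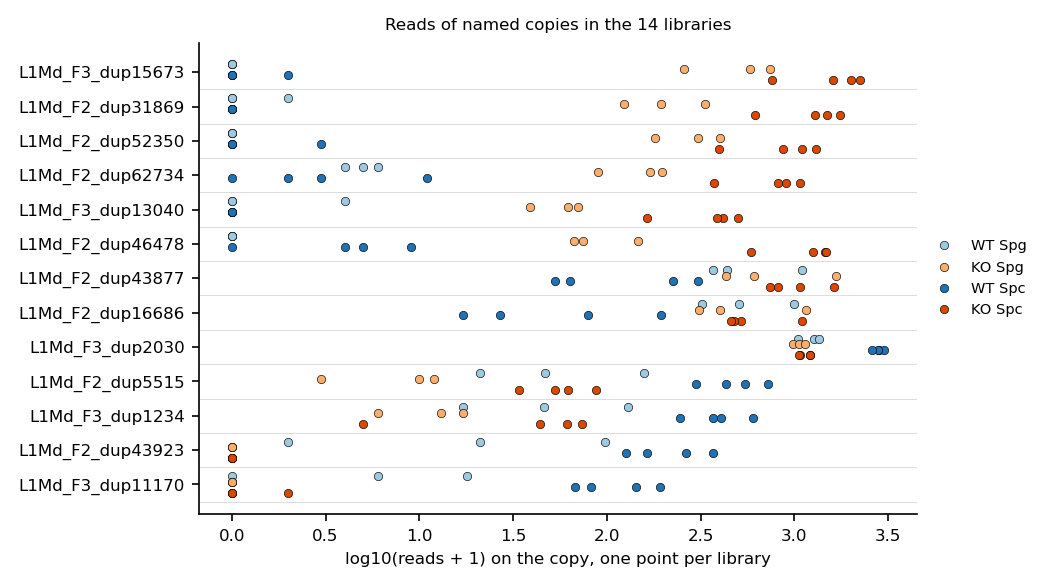
Reads of 13 named copies in the 14 libraries on a scale of log10(reads + 1), with 1 point per library coloured by group. Copies such as L1Md_F3_dup15673 had 258 to 2230 reads in the KO libraries and at most 1 in WT, L1Md_F3_dup2030 had 988 to 3014 reads everywhere, and copies such as L1Md_F2_dup43923 had reads in WT alone.

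Of the 6 copies that rose the most on the limma scale, 5 lie directly behind a young L1 copy on the same strand. L1Md_F2_dup43523 and L1Md_F2_dup1093 do so too. L1Md_F3_dup15673 starts 65 bp after L1Md_T_dup22635, a copy of 989 bp with 52, 31, 52 and 64 reads in KO and 0 in WT spermatocytes. L1Md_F2_dup31869 starts 8 bp after L1Md_A_dup7854 (7723 bp), L1Md_F3_dup13040 1 bp after L1Md_A_dup13818 (6964 bp), and L1Md_F2_dup62734 36 bp after L1Md_T_dup22993 (7257 bp). L1Md_F2_dup52350 overlaps L1Md_T_dup19368 (6994 bp) by 12 bp. The young neighbours of L1Md_F2_dup1093 and L1Md_F2_dup43523 are both 996 bp long. All 7 neighbours had reads in every KO library of spermatocytes, from 21 to 550, and at most 2 in any WT spermatocyte library.

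This arrangement was then counted over all copies, a choice made after the values were seen and therefore given without a test. Of the 11393 copies, 511 (4.49%) had a same-strand L1Md_T (247), L1Md_A (239) or L1Md_Gf (25) copy that ended at most 1000 bp upstream or overlapped by up to 50 bp. They were 18 F, 405 F2 and 88 F3 copies with a median length of 3882 bp (4680 bp in the other copies), and 392 of them lay within 100 bp. The neighbours had a median length of 996 bp, 94 were at least 990 and under 1000 bp long and 164 at least 2000 bp. These 4.49% of copies held 16.8% to 23.9% of the reads on F, F2 and F3 copies in KO spermatocytes and 1.17% to 2.14% in WT. In spermatogonia they held 11.1% to 19.0% of those reads in the KO libraries against 1.69% to 2.42%. A read was found for 62.4% of them and for 56.3% of the other copies in KO spermatocytes, and for 22.3% and 23.0% in WT, so the adjoining copies differed less in how many had a read than in their share of the reads.

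Reads per copy were then taken over every copy by this distance, with no filter on the level. The 392 copies within 100 bp had a mean of 12.4 to 33.3 reads per copy in the KO spermatocyte libraries and 0.184 to 0.536 in WT. The 119 copies farther off and up to 1000 bp had 7.68 to 18.9 in KO, the 429 up to 5000 bp 2.72 to 7.58, the 1572 up to 20000 bp 2.96 to 3.80, and the 8881 beyond 2.58 to 4.48. In WT these bins had 0.160 to 1.56, 0.112 to 0.867, 0.534 to 1.29 and 0.753 to 1.77. The nearest bin had the most reads per copy in each KO library, and the bin beyond 20000 bp in each WT library. That last bin holds L1Md_F3_dup2030, which had 2600 to 3014 reads in the WT spermatocyte libraries. The WT values of the bin were not taken less this copy, so the order of the WT bins may rest on it. The 7 named copies, whose position prompted the count, all lie within 100 bp, and the other 385 copies of that bin had 5.14 to 12.2 reads per copy in KO and 0.179 to 0.481 in WT. In spermatogonia the 385 had 1.48 to 3.11 in KO and 0.281 to 0.953 in WT, and the copies beyond 20000 bp 1.21 to 2.31 and 0.834 to 1.60. On the opposite strand, 119 copies (1.04%) had a young L1 copy within 100 bp upstream. They held 0.663% to 0.981% of the reads in KO spermatocytes and 0.283% to 0.741% in WT. Downstream on the same strand, 350 copies (3.07%) had a young L1 copy within 100 bp. These held 4.18% to 5.14% of the reads in KO spermatocytes and 1.74% to 3.70% in WT.

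Without the reads of the adjoining copies, a step also chosen after the values were seen, the log2 fold changes in spermatocytes were 1.51 for F (edgeR adjusted p = 0.00432), 1.79 for F2 (edgeR adjusted p = 0.000442) and 0.44 for F3 (edgeR adjusted p = 0.086, uncalled as before).

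**Figure D4:**
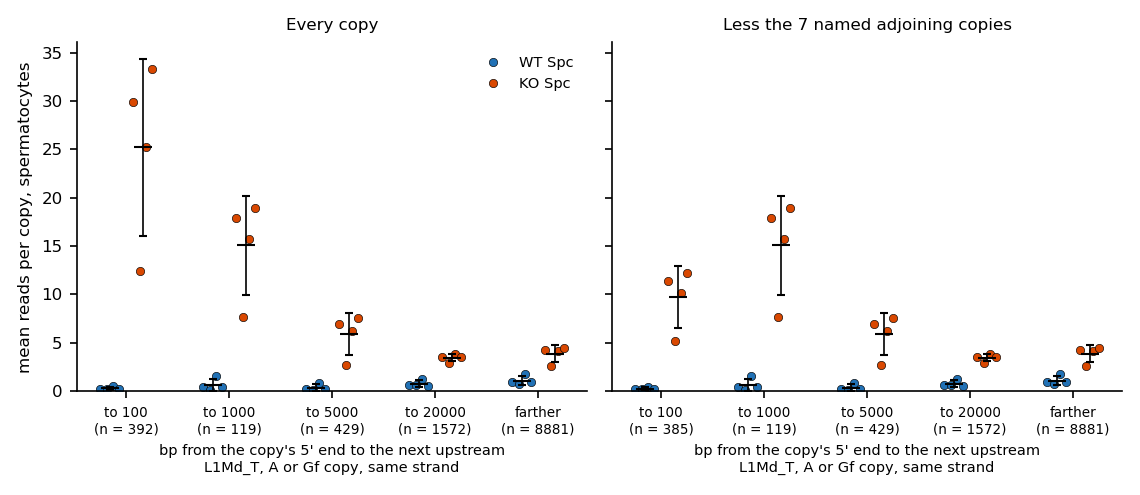
Mean reads per copy in the spermatocyte libraries, over all 11393 F, F2 and F3 copies in 5 bins of the distance in bp from their 5′ end to the next same-strand L1Md_T, L1Md_A or L1Md_Gf copy upstream (the last bin also holds copies without one), with every copy (left) and less the 7 named adjoining copies (right). Points are libraries and bars the mean ± SD. KO libraries had 12.4 to 33.3 reads per copy within 100 bp and 2.58 to 4.48 beyond 20000 bp, and 5.14 to 12.2 within 100 bp less the named copies.

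L1Md_F2_dup46478 rose without a young L1 close upstream on its strand. It lies antisense in an intron of Apoh, the gene of the plasma protein apolipoprotein H (chr11:108387098-108391638, - strand). The nearest young L1 copy upstream on the same strand is 160607 bp away. Its reads were 1264, 584, 1461 and 1483 in KO and 3, 0, 8 and 4 in WT spermatocytes, and 74, 146 and 66 against 0 in spermatogonia (log2 fold change 6.79 in spermatocytes, limma adjusted p = 0.000372). Upstream on its strand lies an element of the IAP family of endogenous retroviruses. Its nearer long terminal repeat, IAPLTR1_Mm_dup1056 at 7569 bp, had 31, 38, 21 and 1 reads in KO and 0 in WT. The farther repeat, IAPLTR1_Mm_dup1057 at 12404 bp, had 32, 12, 26 and 34 reads in KO and 0 in WT. The internal part of the element is listed in 3 pieces. IAPEz-int_dup4979 had 138, 93, 174 and 188 reads in KO and 0, 0, 1 and 0 in WT, the longest piece IAPEz-int_dup4978 (2344 bp) 29, 14, 58 and 44 against 0, 5, 6 and 0, and IAPEz-int_dup4977 20, 8, 34 and 20 against 1, 0, 0 and 1. The TE copies looked up here were those on this strand with a read in at least 1 spermatocyte library. Between the nearer repeat and the L1 copy there were 8 of them, all with KO reads and at most 2 reads in any WT library. Copies without a read or on the other strand were not counted. The Apoh gene, on the other strand, had 169, 162 and 184 counts in KO and 0, 5 and 1 in WT spermatogonia (log2 fold change 6.20, edgeR adjusted p = 0.0264, not called) and no difference of that size in spermatocytes (0.02, edgeR adjusted p = 0.976).

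The copies that fell the most in KO spermatocytes were read in WT spermatocytes together with the gene around them where there is one. L1Md_F3_dup1475 and L1Md_F3_dup1473 lie sense in an intron of 4932414N04Rik. They had 7, 2, 1 and 9 reads in KO against 123, 119, 173 and 87 in WT, and 9, 3, 5 and 7 against 129, 127, 180 and 119 (log2 fold changes -5.08 and -5.01, limma adjusted p = 0.00144 and 0.00103). The gene itself had 90, 22, 54 and 72 counts in KO and 6614, 4210, 4789 and 6357 in WT (log2 fold change -7.14, edgeR adjusted p = 5.8e-06). L1Md_F2_dup49073 lies sense in Catsperb, which encodes a subunit of the sperm calcium channel CatSper, and L1Md_F2_dup49054 sense in Gm18795. They had 3, 0, 4 and 7 reads against 105, 122, 171 and 100, and 0, 1, 0 and 0 against 80, 31, 80 and 70. The call of L1Md_F2_dup49054 (limma adjusted p = 0.00235) was lost without WT replicate 1 or 4 (-4.50 and -4.49, limma adjusted p = 0.0123 and 0.01197). The host genes had log2 fold changes of -8.73 and -9.07 (edgeR adjusted p = 0.000132 and 4.9e-05).

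Between genes, L1Md_F3_dup11170 (chr10:86547524-86549694) had 0, 0, 0 and 1 reads in KO and 67, 143, 191 and 81 in WT spermatocytes. L1Md_F2_dup43923 (chr10:86642795-86647957) had 0 in each KO library and 126, 264, 367 and 162 in WT, at least 76.6 times as many reads (137 on the TPM scale, where a read is worth less in KO). In WT spermatogonia these had 0, 17 and 5, and 20, 97 and 1 reads, with the highest value in replicate 2, the library with the most pachytene RNA. All 6 copies were below every WT library in each KO library, along with the pachytene markers given above.

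Of the 4 highest copies of WT spermatocytes, a neighbouring pair fell in KO but kept reads there. L1Md_F2_dup5515 (chr2:23302143-23307486) and L1Md_F3_dup1234 (chr2:23295938-23302149) follow each other on the + strand, between genes. The first had 548, 299, 725 and 429 reads in WT and 87, 33, 52 and 61 in KO spermatocytes (log2 fold change -3.90, limma adjusted p = 0.00237), the second 407, 244, 599 and 367 against 60, 4, 73 and 43 (-4.19, limma adjusted p = 0.00578). The call of the second was lost without any 1 library other than KO replicate 2 (adjusted p up to 0.0202 in limma), and that of the first without WT replicate 1 (-3.79, limma adjusted p = 0.0105). With TPM scaled by the share of TE reads they changed by -2.12 and -2.45 and were not called (limma adjusted p = 0.0404 and 0.0605).

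The highest copies of spermatogonia overlapped between KO and WT at that stage. L1Md_F2_dup16686 (chr4:121135264-121138318, between genes) had 311, 1149 and 403 reads in KO and 321, 506 and 998 in WT spermatogonia (log2 fold change -0.22, limma adjusted p = 0.963). In spermatocytes it had 520, 1099, 479 and 459 in KO and 26, 78, 193 and 16 in WT (2.60, limma adjusted p = 0.035, not called, and 2.54 in edgeR on the reads, adjusted p = 0.00221, called). L1Md_F2_dup47023 lies sense in an intron of the noncoding RNA gene 2410018L13Rik (chr12:22985201-22988041). It had 372, 841 and 418 reads in KO and 241, 418 and 740 in WT spermatogonia, and 266, 708, 285 and 177 against 1, 36, 48 and 1 in spermatocytes (4.07, limma adjusted p = 0.0271, not called, and 3.53 in edgeR on the reads, adjusted p = 0.00043, called). The gene was higher in KO spermatocytes too (log2 fold change 2.69, edgeR adjusted p = 0.00476), a call lost without any 1 of KO replicates 2 and 3 and WT replicates 1, 2 and 4 (2.33 to 2.699). In both copies KO replicate 2 was the highest of the spermatocyte libraries, and it was also the one with the highest spermatogonial markers (1275 CPM). L1Md_F2_dup43876 and L1Md_F2_dup43877, about as long as a full L1 (6181 and 6180 bp), had log2 fold changes of 1.94 and 2.09 in spermatocytes (limma adjusted p = 0.105 and 0.0527, and 0.03004 and 0.00618 in edgeR on the reads, so that edgeR called the second) and of -0.24 and 0.27 in spermatogonia.

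Of the genes that start antisense inside F copies, 9 of the 11 that could be tested fell in KO spermatocytes. Of the 51 such genes 33 were in the spermatocyte table and 11 could be tested, with 9 lower, 1 higher and a median log2 fold change of -4.88. Of all genes tested 30.7% were lower, and of all noncoding RNA genes 44.7%. Of the 11 genes, 5 are protein coding. A gene could pass the filter through WT alone, and the pachytene markers given above fell in the same libraries, a part that was not tested. In spermatogonia 6 were tested by edgeR and 0 called, with Dnah7b at -2.63 (edgeR adjusted p = 0.18) and a median of -0.53. The noncoding RNAs whose first bases are printed above were read in WT spermatocytes nearly alone. 1700110I01Rik had 1335, 738, 526 and 1267 counts in WT and 2, 0, 0 and 8 in KO (log2 fold change -9.16, SE 1.03, edgeR adjusted p = 5.2e-05). Gm10339 had 1155, 645, 425 and 1012 counts in WT and 1, 0, 2 and 4 in KO (-9.40).

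Gm47381 had 375, 38, 219 and 317 counts in WT and 0, 1, 0 and 1 in KO, 474.5 times as many counts in WT (95% interval 131 to 3924, counting error only), or 439 times when divided by the total count of each library. Gm41102 had 103, 146, 89 and 123 counts in WT and 1, 0, 0 and 4 in KO (-6.97), and 4930554C24Rik 76, 13, 14 and 47 in WT and 0, 1, 0 and 0 in KO. All 5 had higher counts in each WT than in any KO library. Starts farther into a copy, at 4145 and 4750 bp, belong to Dnah7b, a heavy chain gene of ciliary dynein, and to AC160336.1. Dnah7b had 24659, 26408, 15853 and 27027 counts in WT and 1568, 809, 899 and 1645 in KO (-4.88), and AC160336.1 had 1034, 1014, 722 and 845 against 47, 60, 60 and 51 (-4.68).

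The other protein coding genes moved less. Ccdc34 and Ift80, both known from cilia and flagella, had log2 fold changes of -1.47 and -1.84 (edgeR adjusted p = 6.8e-05 and 0.000448). Lipo3, a lipase gene, went the other way, with 1418, 828, 1215 and 1596 counts in KO and 149, 252, 440 and 140 in WT (1.88, edgeR adjusted p = 0.00136), and Usp29, a deubiquitinase gene, was not called (0.47, edgeR adjusted p = 0.332). Of genes that start on the strand of the copy, 2 were tested. Gm5539 fell by 2.79 on the log2 scale (edgeR adjusted p = 0.00187). Gm48541, a pseudogene in L1Md_F_dup3149 (chr12:15480973-15486670, + strand), had 65, 25, 30 and 45 counts in KO and 0 in each WT spermatocyte library, at least 13.75 times as many counts (14.8 when divided by library totals).

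**Figure D5:**
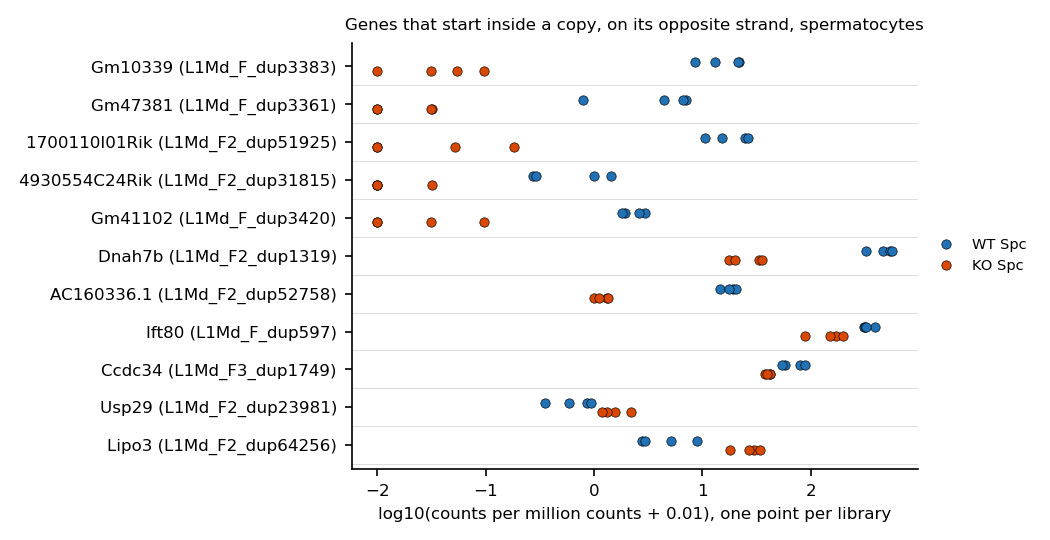
Levels of the 11 tested genes that start antisense inside F, F2 or F3 copies, in the 8 spermatocyte libraries, on a scale of log10(CPM + 0.01), with 1 point per library. The WT points lie to the right of the KO points for the 9 genes called lower, and Lipo3 shows the opposite order.

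The 24 genes known to act in L1 silencing were read beside the copies. In spermatogonia 0 were called, with a median log2 fold change of -0.14. In spermatocytes 3 were higher and 11 lower, with a median of -0.87, against 28.0% and 30.7% of all genes. Higher were the DNA methyltransferases Dnmt3a (2.84) and Dnmt3b (1.97) and Tex15 (2.54), a partner of the nuclear piRNA machinery. Lower were Dnmt3l (-2.45), the cofactor of DNA methyltransferases, and Uhrf1 (-0.78), which recruits the maintenance methyltransferase. Of the piRNA pathway, Pld6 (-4.18), Gtsf1 (-4.66), Tdrd5 (-3.68), Tdrd1 (-3.44), Mael (-3.31), Tdrd9 (-2.47) and Ddx4 (-1.60) were lower, as were the chromatin repressors Trim28 (-1.49) and Mphosph8 (-1.34). The pachytene list fell in the same libraries, from 6988 to 9075 CPM in WT to 226 to 328 CPM in KO, and its part in these values was not tested.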

How the data were processed

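Polyadenylated RNA of 14 libraries (Spg 3 KO and 3 WT, Spc 4 KO and 4 WT) was analysed. The authors trimmed reads with cutadapt 4.0, aligned them to GRCm38 with STAR 2.7.3a and GENCODE M25, kept up to 100 alignments per read and counted with TEtranscripts, and deposited raw counts per gene and TE subfamily. For single copies the authors ran TElocal on the strand of the copy. The deposited TPM values sum to the same total per library over TE copies alone. Every TPM times length was a whole multiple of 1 read (within 0.001). The authors' fold changes and p-values (DESeq2 1.44.0), also in these tables, were not used. Spermatogonia columns numbered rep4 belong to samples titled replicate 3, and a library per genotype that the authors excluded was not analysed here.

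Counts were tested with edgeR 4.0.16 in R 4.3.3 (filterByExpr, TMM, quasi-likelihood), per stage or over 4 groups for stage differences. Copies were tested with limma 3.58.1 on log2(TPM + 0.1) at a mean TPM of at least 0.5, and as reads with edgeR. All tests are two-sided with Benjamini-Hochberg adjustment over all features, called at an adjusted p under 0.01. Ratios were compared by exact permutation tests. Positions and gene types came from GENCODE M21 (GRCm38), promoter windows from RefSeq (GRCm38.p6). No genome sequence was used, so the planned description of unique sequence, CpG and motifs and reading frames of the copies was not run. Identities came from local alignments (Biopython 1.88), folds against 0 to 3 reads from a floor of 3 reads per library or an exact 95% interval, on the reads or counts as they stand and scaled per library (copies by the TPM of 1 read, genes by total count), which cover counting error only. Alternatives used DESeq2 1.42.0, and other steps Python 3.11.15, NumPy 2.4.6, pandas 2.3.3, SciPy 1.17.1 and matplotlib 3.10.9. The fits were tested on simulated data.

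The copies, gene lists and tests were chosen with earlier results of these data known. Named copies are, per stage, the called ones without overlap between genotypes whose rise (6) or fall (6) was largest (in spermatogonia the 5 with the smallest p), and the 4 with the highest mean TPM in each genotype. Genes are those around them and 24 silencing genes. Genes starting inside copies, Morf4l1, the IAP element and the young neighbours were chosen after their values were seen. Per the study's methods, cells of littermates were gathered until each genotype had triplicates, and its expression plots name 3 biological replicates per genotype and stage, while 4 spermatocyte libraries per genotype are labelled as replicates and used here. No source used here ties a library to an animal, so p-values measure the spread between samples. Replicate numbers paired the spermatogonia (correlations of same-numbered deviations 0.515, 0.147 and 0.196) but not the spermatocytes.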

Additional observations from a re-analysis of the deposited data

Results flagged for a closer look

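Among 58 groups of 4 libraries checked, 8 had a library apart from the other 3. Chance alone gives about 1 in 20 for continuous values, a rate that does not hold for the 4 copies named last, which have 1 or 2 reads in 1 library. KO spermatocyte replicate 2 had 2342 copies with a read where the others had 3769 to 3853, and its log2 ratio of F, F2 and F3 over L1Md_A was -2.17, where the others lay between -2.85 and -2.74. WT spermatocyte replicate 3 had a log2 ratio of F, F2 and F3 over L1Md_T of 0.84, against 1.15 to 1.18. L1Md_F3_dup1234 was at 7.26 TPM in 1 WT spermatocyte library and at 13.2 to 14.2 TPM in the others. The other 4 were copies with reads in 1 library of a group: L1Md_F2_dup49054 (0.0224 TPM) and L1Md_F3_dup11170 (0.0493 TPM) in KO spermatocytes, and L1Md_F2_dup52350 (0.0899 TPM) and L1Md_F3_dup15673 (0.0413 TPM) in WT spermatocytes, each at 0 in the other 3 libraries.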

How the results depend on the processing

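Of the subfamily fits under the alternatives, 263 kept direction and call, 16 lost and 14 gained a call, and 12 turned sign, all of these uncalled. No ratio could reach a p under 0.01, and the sign of 1 turned, F2 over F3 in spermatogonia less L1Md_F3_dup2030 (-0.072). The number of copies called in spermatogonia, 0 with limma, was 53 with edgeR on the reads. In spermatocytes the 96 copies became 40 with log2(TPM + 1), with every copy tested or with a mean TPM of at least 2, 34 when median centred, 155 at 0.05, 24 with replicates 1 and 4 averaged, 295 with edgeR on the reads, and 37 to 132 without 1 library (37 without WT replicate 1, 132 without KO replicate 2). With the replicate number as a block 19 were called, all among the 96. Among the subfamily fits, the block changed no call in spermatogonia (F 0.93, F2 0.59, F3 0.44) and 1 other call: F3 between KO stages, 1.31 (edgeR adjusted p 0.0328). The spermatocyte numbers were not taken as pairs (correlations 0.0781, 0.206, -0.00382 and 0.12). Spermatocyte replicates 1 and 4 were more alike than other pairs (chi-square over its degrees of freedom 10.98 in KO and 15.3 in WT, against 112.7 to 288.9).

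L1Md_F in spermatocytes was no longer called with replicates 1 and 4 summed (1.52, adjusted p 0.0218), nor without WT replicate 1 (1.36 to 1.89 without 1 library). L1Md_F3 was called in spermatocytes at 0.05 (0.69), under library totals (1.36), less L1Md_F3_dup2030 (1.42) and without KO replicate 2 (0.58 to 0.88). The F2 difference between stages was called at 0.05 (1.32) and under library totals (1.97), and ran from 1.19 to 1.66 without 1 library. For F2 between WT stages, uncalled at 0.10, the sign turned under library totals (-0.66), TMM of genes alone (-0.017) and no filter (-0.043), and it ran from -0.28 to 0.23 without 1 library. F3 between WT stages was lost under library totals (0.36), less L1Md_F3_dup2030 (0.76) and without WT spermatogonia replicate 1 (0.80 to 1.20). Between KO stages, F was called at 0.05 (1.55) and by DESeq2 (1.53), F2 at 0.05 (1.42), by DESeq2 (1.40) and without KO replicate 2 or WT replicate 3 of spermatocytes (1.21 to 1.62), and F3 was lost under library totals (1.26), with replicates 1 and 4 summed (1.29), less L1Md_F3_dup2030 (1.51) and in leave-one-out fits (1.18 to 1.53). Library totals moved the median of all genes in spermatocytes from 0.11 to 0.79. The cause of these changes was not tested.

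Of 33 calls of named copies and genes, 14 were lost under at least 1 alternative and 19 under none of those run. L1Md_F3_dup1234 lost its call under 12 alternatives, L1Md_F2_dup49054 and 2410018L13Rik under 6 each, L1Md_F3_dup2030 under 5, L1Md_F2_dup5515 under 4, L1Md_F2_dup49073 and Gm5539 under 3 each. L1Md_F2_dup46478, L1Md_F2_dup52350, L1Md_F2_dup62734 and L1Md_F3_dup13040 lost it when median centred, L1Md_F3_dup1473 and L1Md_F3_dup1475 with the block, and Lipo3 with replicates 1 and 4 summed. Of 14 uncalled, 7 were called under an alternative. Signs that turned were all of uncalled values. In spermatogonia they were L1Md_F2_dup16686 (0.28 with TPM times TE share, -0.54 to 0.083 without 1 library), L1Md_F2_dup43876 (0.25 with TE share, -0.72 to 0.21 without 1 library), L1Md_F2_dup43877 (-0.70 median centred, -0.054 to 0.62 without 1 library), L1Md_F2_dup47023 (-0.87 median centred, -0.11 to 0.38 without 1 library) and L1Md_F3_dup2030 (0.14 with TE share). In spermatocytes they were L1Md_F2_dup16686 (-0.17 median centred) and Apoh (-0.028 with DESeq2 size factors, -0.027 with DESeq2's test, -0.0079 with no filter, -0.35 to 0.53 without 1 library).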
